A study of Drosophila melanogaster with 10 samples.

Results

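Wing imaginal discs of Drosophila melanogaster at the onset of larval wandering were compared with discs taken earlier in the same instar, by RNA sequencing. The discs, larval epithelia that become the adult wing and notum, came from larvae of the strain yw. No other genotype and no treatment is named in the labels. The comparison used 4 of the 10 libraries of the series: 2 at 35 h into the third larval instar, timed from the molt that opened it, and 2 at 48 h, when the larvae were wandering. The remaining libraries, at 6, 15 and 25 h, are described as earlier levels. Libraries are named by hour and replicate letter, so that 35 h A is replicate A at 35 h. Whether the 2 libraries of a time came from separate cultures is not stated, so the p-values here reflect the spread of these libraries alone.

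Members were all genes whose signal reached 10 in 2 or more of these 4 libraries, which gave 9260 of the 13041 genes in the table. Signal is the read count of a gene divided by 1 size factor per library, so it is scaled for depth but not for gene length. Levels are therefore compared between libraries for 1 gene and not between genes. Changes are differences of log2(signal + 1), 48 h minus 35 h, given with their standard error (SE). They were tested with limma, with Benjamini-Hochberg adjustment over the 9260 genes and a threshold of 0.05. A gene past the threshold is called higher or lower.

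As background, larvae stop feeding and leave the food when they begin to wander, and they form the pupal case some hours later. This transition is driven by pulses of the steroid hormone ecdysone. The hormone acts through a heterodimer of the nuclear receptors EcR and usp, which induces early genes that encode further transcription factors and, through them, late effector genes. In the wing disc, the same hormone is known to end growth and to prepare the disc to unfold outward (eversion), which requires proteolysis of its matrices and changes of cell shape.

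The recovered reads numbered 16814685 and 17060414 at 35 h and 33846755 and 38003104 at 48 h. Between 10865 and 11304 genes had a read in each of the 4 libraries. Genes of the mitochondrial genome took 5.14% and 5.95% of reads at 35 h and 3.75% and 4.37% at 48 h. Genes with rRNA symbols took 6.96% and 6.98%, then 6.24% and 5.05%. Replicates correlated across genes with a Spearman coefficient of 0.993 at 35 h and 0.994 at 48 h. Of 10 wing epithelium markers listed, Ubx was not found in the table. The 9 tested, none at 0, summed to a signal of 49979 and 51155 at 35 h and 52367 and 54148 at 48 h. These markers of the labelled tissue were thus present at both times.

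At 48 h, 1195 genes were called higher and 1162 lower, which is 12.9% and 12.5% of all genes tested and 25.5% together. The median log2 change of all 9260 genes was -0.01. Larger changes were mostly falls. Of the calls of at least 2-fold, 160 were higher and 420 lower (1.73% and 4.54% of genes tested, with 72.4% of these calls lower). When the libraries were brought to a common distribution by quantile normalization, the split was 218 and 293, with 57.3% lower. At least 4-fold, 56 genes were higher and 204 lower, and at least 8-fold, 22 and 81. The 35 h and 48 h values had no overlap for 66.7% of all genes tested, so non-overlap alone marks little.

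The number of calls rested on both 35 h libraries. Without 35 h A, 312 genes were called higher and 255 lower, and without 35 h B 319 and 323. Leaving out 48 h A gave 823 and 803, and leaving out 48 h B gave 1008 and 980. A fit with the spread taken from all 10 libraries left 38 and 49 calls, a fit without the intensity trend left 100 and 172, and a filter counted over all 10 libraries (10453 genes) left 624 and 496. Every one of the 2357 called genes kept its direction under all 15 alternatives tried. For most alternatives this was fixed in advance, since the 35 h and 48 h libraries did not overlap for any of the 2357. On the recovered reads, edgeR called 1272 higher and 1028 lower.

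**Figure D1:**
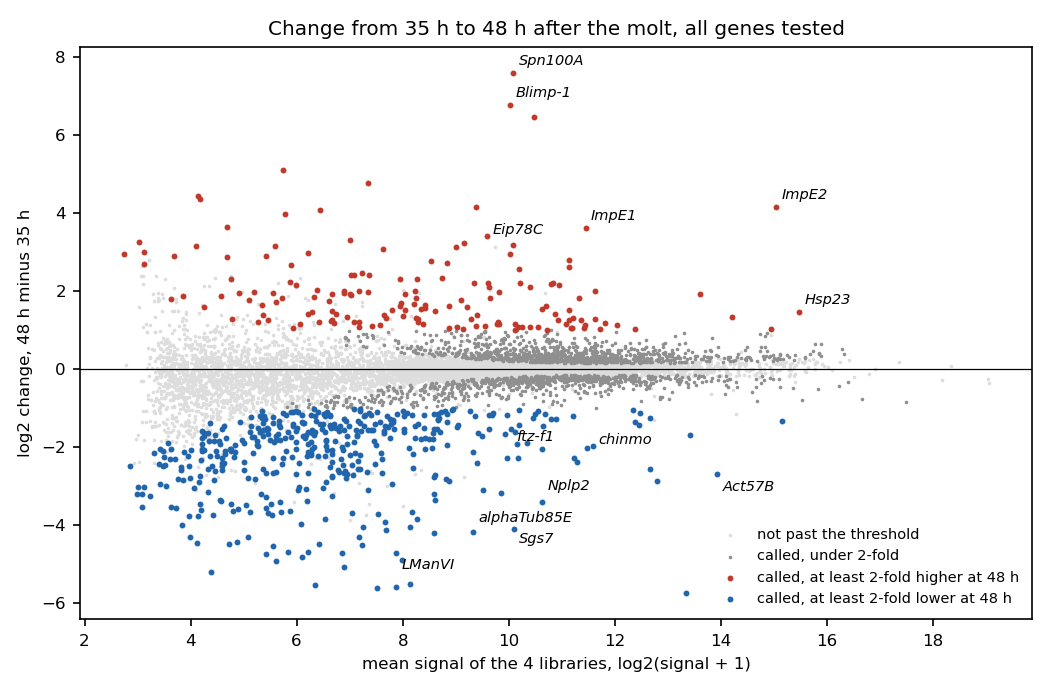
Log2 change from 35 h to 48 h (vertical axis) against the mean signal of the 4 libraries as log2(signal + 1) (horizontal axis) for the 9260 genes tested, 1 point per gene. Red and blue points are the 160 genes called at least 2-fold higher and the 420 called at least 2-fold lower at 48 h, dark grey points are smaller calls and pale points did not pass the threshold. The blue points reach lower in many genes of low signal, while Spn100A, Blimp-1, ImpE2 and ImpE1 stand at the top.

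Of the 160 genes called at least 2-fold higher, 122 had their highest mean of the 5 times at 48 h, against 2351 of all 9260. Choosing genes for a rise to 48 h favours this in advance. In 119 of the 160, 48 h A lay above 48 h B, with a median log2 ratio of A to B of 0.31, against -0.01 over all genes. The 48 h larvae are labelled only as wandering, and what set the 48 h libraries apart for these genes was not tested. Among the 420 genes called at least 2-fold lower, 377 had their lowest mean at 48 h, against 2296 of all 9260. The choice of genes likewise favours this. Their highest mean was at 6 h for 156, at 15 h for 144, at 25 h for 73 and at 35 h for 47. Over all 9260 genes these counts were 2024, 2149, 765 and 1971. A highest mean at 48 h was excluded by the choice of the 420 genes, so an earlier one was likely in advance.

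Of the 5 Imp genes, known from ecdysone-driven disc eversion, 3 were called higher (60%, against 25.5% of all genes), each by more than 4-fold. ImpE2, which encodes a secreted protein of the apical disc surface, had a signal of 3154 and 3951 at 35 h against 78300 and 49804 at 48 h (log2 change 4.14 ± 0.21, adjusted p = 0.000798). In the 25 h libraries it was at 18.2 and 102, so its level was higher at each later time. ImpE1, which encodes a protein with LDL receptor repeats, was at 356 and 393 at 35 h against 7727 and 2687 at 48 h (log2 change 3.60 ± 0.44, adjusted p = 0.00423). ImpE3 was at 228 and 239 at 35 h against 2363 and 1352 at 48 h (log2 change 2.93 ± 0.24, adjusted p = 0.00159). For all 3 genes the 48 h libraries lay above the 35 h libraries, and 48 h A lay above 48 h B, with a ratio of 2.88 for ImpE1. ImpE2 (arm 3L, 3510974 to 3512681) and ImpE1 (arm 3L, 8372405 to 8391171) lie far apart on the same arm, and ImpE3 lies on arm 3R, 8028453 to 8029546 (BDGP6.54 annotation, dm6 assembly). The other 2 members of the list did not pass. ImpL1 was at 10.7 and 1.29 at 35 h against 12.0 and 11.9 at 48 h (adjusted p = 0.312), and ImpL2, which encodes a binding protein of insulin-like peptides, was at 329 and 317 at 35 h against 318 and 232 at 48 h (adjusted p = 0.326). In bulk tissue, fewer cells of a type and less RNA per cell cannot be told apart, which holds for every fall and rise here. ImpE1 missed the threshold without 35 h A (adjusted p = 0.0636) and without 35 h B (adjusted p = 0.0580). In the fit with all 10 libraries, ImpE1 and ImpE3 passed and ImpE2 did not (adjusted p = 0.0776).

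Among the ecdysone response factors, 6 of 15 genes tested were called higher and 4 lower, or 66.7% of the list against 25.5% of all genes. Rises were found among early-response genes. Blimp-1, a zinc finger repressor that the hormone induces, was at 18.8 and 9.03 at 35 h against 3474 and 671 at 48 h (log2 change 6.76 ± 0.75, adjusted p = 0.00328). The nuclear receptor gene Eip78C was at 134 and 115 at 35 h against 1931 and 913 at 48 h (log2 change 3.41 ± 0.33, adjusted p = 0.00238). Its 6 h to 35 h means stayed between 76.3 and 125, so the rise was seen at 48 h alone among the 5 times. Eip75B, which encodes the haem-binding receptor E75, was at 1805 and 1747 at 35 h against 3908 and 3419 at 48 h (log2 change 1.04 ± 0.07, adjusted p = 0.00110).

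Smaller rises were found for E23 (an ABC transporter gene of the early response), Hr39 (a nuclear receptor gene) and br (broad, a zinc finger gene required to enter metamorphosis), with log2 changes of 1.98, 0.63 and 0.39. The br signal was 18028 and 17486 at 35 h against 24338 and 22154 at 48 h, after 10715 and 12425 at 25 h. Hr4, another nuclear receptor gene, had the widest spread of this group. It was at 121 and 94.2 at 35 h against 2910 and 300 at 48 h, so both 48 h libraries lay above both at 35 h, but the change did not pass (log2 change 3.12, adjusted p = 0.0607).

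The falls included receptors of the same cascade. ftz-f1, whose product acts in the prepupa, was at 1580 and 1539 at 35 h against 473 and 597 at 48 h (log2 change -1.55 ± 0.11, adjusted p = 0.00120), after a steady level with means of 1383 to 1559 at 6 to 35 h. Hr38, an NR4A-type receptor gene, was at 45.6 and 38.7 at 35 h against 3.34 and 2.98 at 48 h (log2 change -3.37 ± 0.45, adjusted p = 0.00544), at the end of a series of means of 286, 226, 103 and 42.2. EcR, the receptor gene itself, was at 7376 and 7542 at 35 h against 4971 and 5624 at 48 h (log2 change -0.50 ± 0.07, adjusted p = 0.00514). Its 48 h mean of 5298 was close to the 15 h mean of 5279. Eip74EF, an ETS factor gene of the early response, was at 2820 and 2893 at 35 h against 2236 and 2576 at 48 h, which did not pass (adjusted p = 0.0524). Of 5 tested genes in a separate list of ecdysone-induced Eip and Eig genes, none was called higher and 3 were called lower (60%, against 25.5% of all genes). That list had a median log2 change of -0.42, and Eig71Ee, given below with the glue genes, was 1 of the 3. Of 4 genes of ecdysone uptake and turnover tested, 2 were called higher (50%, against 25.5% of all genes). They were E23 and Oatp30B, an organic anion transporter gene (1290 and 1385 at 35 h against 2266 and 2005 at 48 h). Oatp74D, the gene of the ecdysone importer, did not pass (3373 and 3541 at 35 h against 3562 and 2767 at 48 h, adjusted p = 0.421), nor did Cyp18a1, which encodes an enzyme that inactivates the hormone (41.6 and 16.8 at 35 h against 112 and 36.3 at 48 h, adjusted p = 0.213). This list gave 1 higher without 35 h A and without 35 h B, and 2 higher and 1 lower without 48 h A, the lower call being Oatp74D.

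The calls lost in this group without 35 h A were those of E23, Hr39, br, EcR and Hr38 (adjusted p 0.0528 to 0.0796), and those lost without 35 h B were of Blimp-1, E23, Hr39, br and EcR (adjusted p 0.0502 to 0.104). These losses cover only the genes named above, and the list holds a further lower call that is not named. The 10-library fit still called Eip78C, Eip75B, ftz-f1 and Hr38. The list gave 3 higher and 1 lower without 35 h A, and 2 higher and 2 lower without 35 h B.

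**Figure D2:**
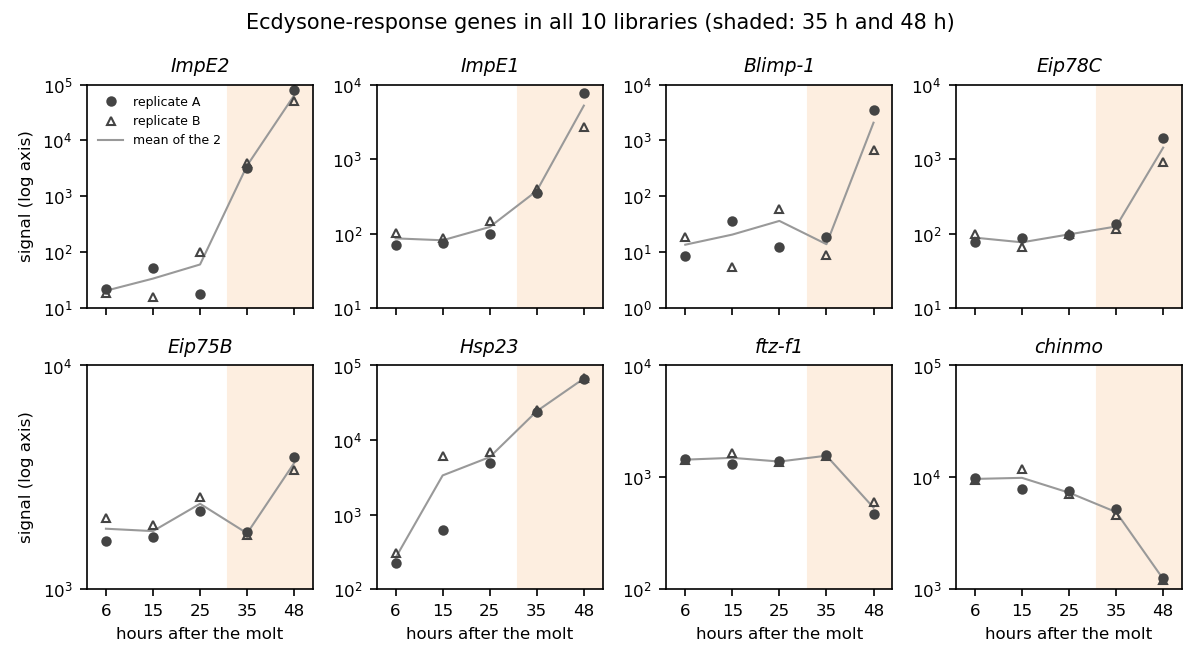
Signal (vertical axis, log scale) of 8 genes in all 10 libraries, by hours after the molt (horizontal axis, spaced by time point), with replicate A as filled circles, replicate B as open triangles and a line through the means of the 2. ImpE2, ImpE1, Blimp-1, Eip78C, Eip75B and Hsp23 are higher at 48 h than at 35 h, and ftz-f1 and chinmo are lower, with no overlap between the libraries of these 2 times.

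Of 8 small heat shock protein genes listed, 3 were not found in the table, and all 4 tested were called higher (against 25.5% of all genes called). They are chaperone genes that the hormone is known to induce in late larvae without heat, and they neighbour each other on arm 3L between 9376418 and 9385694. Hsp23 was at 23588 and 25150 at 35 h against 64885 and 68800 at 48 h (log2 change 1.46 ± 0.07, adjusted p = 0.000440), after means of 263, 3350 and 5898 at 6, 15 and 25 h. Hsp27 was at 10972 and 10465 at 35 h against 28164 and 25904 at 48 h (log2 change 1.33 ± 0.06, adjusted p = 0.000414). Hsp26 was at 1454 and 1596 at 35 h against 4631 and 2832 at 48 h, with 48 h A well above 48 h B, and Hsp67Ba was at 750 and 699 at 35 h against 1210 and 1252 at 48 h. Of 4 larger heat shock genes tested, 1 was called lower and none higher (25%, against 25.5% of all genes). DnaJ-1, an Hsp40 gene, was called lower (3390 and 3485 at 35 h against 2835 and 2669 at 48 h, log2 change -0.32), and Hsp83 and Hsp68 did not pass, with log2 changes of -0.20 and -0.90 and adjusted p of 0.331 and 0.0701. Hsc70-3, the chaperone gene of the endoplasmic reticulum, had a positive change that did not pass (18307 and 17895 at 35 h against 27943 and 21238 at 48 h, log2 change 0.43, adjusted p = 0.0513). It passed without 48 h A and without 48 h B (adjusted p = 0.0415 and 0.000965), and these 4 genes gave 0 lower without 35 h A and without 35 h B, 1 higher and 3 lower without 48 h A, and 1 higher and 1 lower without 48 h B. Hsp26 and DnaJ-1 missed the threshold without 35 h A (adjusted p = 0.101 and 0.0638) and without 35 h B (adjusted p = 0.0818 and 0.0717). None of these 5 calls passed in the 10-library fit, which takes in the wide 15 h pair (adjusted p = 0.198 for Hsp27, the lowest).

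The temporal identity factors, which separate early from late larval programmes in discs and neuroblasts, had 2 of 7 members called higher and 2 lower. Calls made up 57.1% of the list, against 25.5% of all genes. chinmo, a zinc finger gene of the early programme (arm 2L, 1651258 to 1704682), was at 5170 and 4596 at 35 h against 1264 and 1198 at 48 h (log2 change -1.98 ± 0.07, adjusted p = 0.000259). Its means from 6 h on were 9667, 9884, 7284, 4883 and 1231, so the drop between successive means was largest from 35 h to 48 h. Imp, an RNA-binding protein gene of the early programme and no relative of the ImpE genes, was at 4483 and 4072 at 35 h against 2169 and 2126 at 48 h (log2 change -0.99 ± 0.06, adjusted p = 0.000806). On the late side, br rose, and ab (abrupt, another zinc finger gene) was called higher at 2466 and 2353 at 35 h against 3169 and 3246 at 48 h, though below its 25 h values of 5397 and 4961. Syp, which encodes an RNA-binding protein opposed to Imp in neuroblasts, was at 34191 and 34758 at 35 h against 38254 and 38174 at 48 h (log2 change 0.15, adjusted p = 0.0970). Its means at 6 h and 25 h were 8696 and 21830. The list gave 1 higher and 2 lower without 35 h A and without 35 h B. The calls of chinmo, Imp and ab held without each library in turn, and chinmo passed in the 10-library fit (adjusted p = 0.0179).

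Genes for proteases, their inhibitors and the apical matrix changed in both directions, with rises the majority of calls. Of 27 matrix proteases and inhibitors, 9 were called higher and 3 lower (44.4%, against 25.5% of all genes). The largest rise of any gene named here was that of Spn100A, a serpin (protease inhibitor) gene on arm 3R, 30690642 to 30692768, with a signal of 8.05 and 7.74 at 35 h and 3483 and 829 at 48 h (log2 change 7.58 ± 0.62, adjusted p = 0.00157). A second serpin gene, Spn43Aa, was at 187 and 239 at 35 h against 2236 and 1641 at 48 h (log2 change 3.18 ± 0.18, adjusted p = 0.000806). Both 48 h libraries were far above both 35 h libraries for each serpin gene, and the ratio of 48 h A to 48 h B was 4.20 for Spn100A.

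A pair of genes for membrane-bound serine proteases rose. Np (Notopleural) was at 177 and 152 at 35 h against 584 and 455 at 48 h (log2 change 1.64 ± 0.16, adjusted p = 0.00239). Sb (Stubble), which is required for legs and wings to evert, was at 299 and 306 at 35 h against 751 and 525 at 48 h (log2 change 1.05 ± 0.17, adjusted p = 0.00979). Of the matrix metalloprotease genes, Mmp2 was called higher at 553 and 525 at 35 h against 1425 and 993 at 48 h (log2 change 1.14 ± 0.16, adjusted p = 0.00674), while Mmp1 was at 1209 and 1163 at 35 h against 4054 and 1267 at 48 h and AdamTS-A at 1459 and 1464 at 35 h against 4680 and 1983 at 48 h, neither of which passed (adjusted p = 0.212 and 0.0809). In both genes 48 h A lay far above 48 h B, and AdamTS-A was called higher without 48 h A (adjusted p = 0.00523). AdamTS-B fell to 1439 and 1511 from 2275 and 2410. Sb and Mmp2 missed the threshold without 35 h A (adjusted p = 0.0850 and 0.0680) and without 35 h B (adjusted p = 0.0767 and 0.0717). Both serpin genes passed in the 10-library fit. The list gave 4 higher and 1 lower without 35 h A and without 35 h B.

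For chitin, the polymer of the cuticle, 6 of 19 genes were called higher and 2 lower (42.1%, against 25.5% of all genes). The chitinase genes moved apart. Cht5 and Cht10, which act in moulting, were at 387 and 400 at 35 h against 2750 and 1193 at 48 h (log2 change 2.20) and at 20494 and 21201 at 35 h against 45633 and 39047 at 48 h (log2 change 1.02). Cht2 was at 2835 and 2719 at 35 h against 4452 and 4661 at 48 h (log2 change 0.71 ± 0.05, adjusted p = 0.000983), and Cht7 fell, with a signal of 4412 and 3972 at 35 h against 2318 and 2870 at 48 h. kkv, the chitin synthase gene, was higher by a log2 change of 0.32, and of the chitin-binding protein genes obst-B was higher (0.41) and Gasp lower (-0.61). Zona pellucida proteins anchor the apical membrane to the matrix. Of 10 of their genes, 4 were called higher and 1 lower (50%, against 25.5% of all genes). neo was at 1765 and 1878 at 35 h against 5101 and 3805 at 48 h (log2 change 1.27 ± 0.13, adjusted p = 0.00274), pio at 6480 and 6282 at 35 h against 13380 and 9673 at 48 h and nyo at 1271 and 1313 at 35 h against 1835 and 1920 at 48 h, while dpy, which encodes the giant protein Dumpy, fell by 0.37 on the log2 scale to 24438 and 23794.

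Without 35 h A the calls of Cht5, Cht7, kkv, obst-B, pio and dpy (adjusted p 0.0812 to 0.0970) were lost, and the same genes were lost without 35 h B (adjusted p 0.0504 to 0.181). obst-B was also lost without 48 h B (adjusted p = 0.0591). Cht2 and neo passed in the 10-library fit. The chitin list gave 3 higher and 1 lower without 35 h A and without 35 h B, and the zona pellucida list 2 higher and 0 lower without 35 h A and without 35 h B, and 3 higher and 2 lower without 48 h A.

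On the basal side, 2 of 13 basement membrane genes were called higher and 2 lower, close to the share of all genes. The laminin chain gene wb was at 1817 and 1698 at 35 h against 3183 and 2892 at 48 h (log2 change 0.79 ± 0.06, adjusted p = 0.00157) and LanB2 at 6289 and 5682 at 35 h against 7310 and 7000 at 48 h. Pxn (peroxidasin) was at 10102 and 5455 at 35 h against 2930 and 2880 at 48 h and SPARC at 3727 and 2785 at 35 h against 2243 and 2128 at 48 h. Pxn is also a haemocyte marker, and the 12 haemocyte markers summed to 74235 and 37389 at 35 h and 13597 and 16291 at 48 h. Their part in these falls was not tested. The integrin alpha genes scb and if were called higher, at 740 and 722 at 35 h against 1727 and 1251 at 48 h and 2431 and 2273 at 35 h against 3359 and 3208 at 48 h. None of the 6 calls named in this group passed in the 10-library fit. The calls of LanB2, SPARC and scb (adjusted p 0.0578 to 0.0713) were lost without 35 h A, without 35 h B those of LanB2 and scb (adjusted p 0.0717 to 0.131), and without 48 h A LanB2 (adjusted p = 0.0698). The basement membrane list gave 1 higher and 1 lower without 35 h A, 1 higher and 4 lower without 35 h B, and 1 higher and 3 lower without 48 h A.

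Wing patterning genes, which position veins, margin and body wall, had 19 of 44 members called higher and 2 lower. Calls made up 47.7% of the list, against 25.5% of all genes, with a median log2 change of 0.10. The changes were small next to those of the ecdysone genes. tkv, the receptor gene of the morphogen Dpp, was at 7048 and 6982 at 35 h against 13730 and 12743 at 48 h (log2 change 0.91 ± 0.05, adjusted p = 0.000806), after 8393 and 8388 at 25 h. toe, a Pax-family gene, was at 329 and 270 at 35 h against 628 and 539 at 48 h and Dll, a homeobox gene of legs and wing margin, at 1476 and 1572 at 35 h against 2280 and 2318 at 48 h. mirr and en, homeobox genes of the body wall and of the posterior compartment, were at 1158 and 1207 at 35 h against 1846 and 1652 at 48 h and at 1517 and 1556 at 35 h against 2088 and 2211 at 48 h. The lower genes were vn, which encodes a ligand of the EGF receptor, at 1601 and 1598 at 35 h against 1198 and 1131 at 48 h, and bi, a T-box gene downstream of Dpp, at 3004 and 3227 at 35 h against 2305 and 2382 at 48 h. At 25 h, vn had been at 1029 and 1149 and bi at 2009 and 2225, below the 35 h values. The list gave 5 higher and 2 lower without 35 h A, and 7 higher and 2 lower without 35 h B.

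Of 11 proneural and sensory organ genes, 4 were called higher and 1 lower (45.5%, against 25.5% of all genes). sens, a zinc finger gene that marks the precursors, was at 47.0 and 59.3 at 35 h against 211 and 195 at 48 h (log2 change 1.92 ± 0.20, adjusted p = 0.00293). It had been at 147 and 177 at 25 h, so the 35 h libraries lay below those of the times on either side. ase, a bHLH gene expressed in the precursors, was at 9.39 and 7.74 at 35 h against 28.7 and 26.2 at 48 h (log2 change 1.58 ± 0.41, adjusted p = 0.0396), and sca, which encodes a secreted factor that spaces them, was at 1554 and 1648 at 35 h against 2167 and 2024 at 48 h. emc, an inhibitor of the proneural proteins, was also higher, at 8869 and 9389 at 35 h against 11419 and 10998 at 48 h, and the proneural gene sc did not pass, at 611 and 644 at 35 h against 711 and 811 at 48 h (adjusted p = 0.0701). Neither did neur and phyl, genes of precursor fate with log2 changes of 0.06 and 1.04 (adjusted p = 0.679 and 0.204). The lower gene was hry, a repressor gene, at 1909 and 1781 at 35 h against 1604 and 1618 at 48 h (log2 change -0.19, adjusted p = 0.0465). The calls of sens, tkv, toe, Dll, en, vn and bi held without each library in turn. Those of ase, sca, emc and hry were lost without either 35 h library (adjusted p 0.0548 to 0.190 and 0.05002 to 0.101, the first range with mirr), and ase and hry also without 48 h A (adjusted p = 0.199 and 0.122) and without 48 h B (adjusted p = 0.150 and 0.0948). The list gave 1 higher and 0 lower without 35 h A and without 35 h B, 4 higher and 0 lower without 48 h A, and 3 higher and 0 lower without 48 h B. Of these genes, sens passed in the 10-library fit (adjusted p = 0.0396).

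In the pathways of tissue polarity and growth control, the calls were mostly rises. Of 9 planar cell polarity genes, which orient hairs in the plane of the wing, 3 were called higher (33.3%, against 25.5% of all genes). They were pk at 1370 and 1334 at 35 h against 2284 and 2148 at 48 h, the cadherin gene stan at 5803 and 5739 at 35 h against 8350 and 7765 at 48 h and the effector gene in at 1852 and 1678 at 35 h against 2234 and 2727 at 48 h. Of 17 Hippo pathway genes, 7 were called higher (41.2%, against 25.5% of all genes). kibra, an upstream activator, was at 389 and 390 at 35 h against 770 and 649 at 48 h (log2 change 0.86 ± 0.10, adjusted p = 0.00402), after 866 and 860 at 25 h. yki, the transcriptional effector, was at 1192 and 1136 at 35 h against 1524 and 1487 at 48 h, its corepressor gene Tgi at 1509 and 1572 at 35 h against 1951 and 2082 at 48 h and its target Diap1, an inhibitor of apoptosis, at 6088 and 6014 at 35 h against 8785 and 8273 at 48 h. Among 15 cell death genes, 4 were called higher and 2 lower (40%, against 25.5% of all genes). hid, an inducer of apoptosis, was higher at 1152 and 1334 at 35 h against 2088 and 2125 at 48 h (log2 change 0.76 ± 0.08, adjusted p = 0.00267), as was the initiator caspase gene Dronc (0.45), and the effector caspase gene Decay was lower at 52.3 and 43.9 at 35 h against 13.4 and 12.5 at 48 h. jar, the myosin VI gene, was higher at 5978 and 6199 at 35 h against 10267 and 8959 at 48 h. Calls lost without 35 h A were those of in, kibra, Tgi, Dronc, Decay and jar (adjusted p 0.0503 to 0.128), and without 35 h B those of in, yki, Tgi, Dronc and Decay (adjusted p 0.0516 to 0.154). None of these 11 calls passed in the 10-library fit. The Hippo list gave 2 higher without 35 h A and without 35 h B, and 5 higher and 1 lower without 48 h B. The cell death list gave 2 higher and 0 lower without 35 h A and without 35 h B, and 3 higher and 1 lower without 48 h A.

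Among cell cycle genes, nearly all calls were small falls, and most of those calls rested on both 35 h libraries. Of 29 genes of G2 and mitosis, 13 were called lower (44.8%, against 25.5% of all genes). Their median log2 change was -0.22, against -0.01 for all genes. stg, the Cdc25 phosphatase gene that limits entry into mitosis, was at 7387 and 7261 at 35 h against 3887 and 4375 at 48 h (log2 change -0.83 ± 0.06, adjusted p = 0.00137), and its 35 h level was the highest of the 5 times. pim (securin) was at 1624 and 1645 at 35 h against 1104 and 1232 at 48 h and cid (the centromeric histone) at 302 and 312 at 35 h against 197 and 200 at 48 h. CycB, by contrast, was at 6497 and 6595 at 35 h against 6570 and 7562 at 48 h, with no call (adjusted p = 0.316). Of 27 genes of G1 and S phase, 8 were called lower, among them Mcm6 (replicative helicase, 4793 and 4791 at 35 h against 3615 and 3893 at 48 h), RnrL (ribonucleotide reductase, 6381 and 6161 at 35 h against 4893 and 5121 at 48 h) and dap (a cyclin-dependent kinase inhibitor, 4253 and 4489 at 35 h against 2772 and 3401 at 48 h). E2f2, a repressor of the S phase programme, was the 1 gene called higher, at 1107 and 1102 at 35 h against 1289 and 1293 at 48 h. Calls made up 33.3% of the G1 and S phase list, against 25.5% of all genes.

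Calls among growth regulators went both ways. Myc was lower at 6191 and 6189 at 35 h against 4288 and 5039 at 48 h and S6k lower at 3251 and 3242 at 35 h against 2725 and 2701 at 48 h, while InR, the insulin receptor gene, was higher at 3547 and 3561 at 35 h against 4837 and 4249 at 48 h. The G2 and mitosis list gave 1 lower without 35 h A and without 35 h B, and 1 higher and 8 lower without 48 h A. The G1 and S phase list gave 0 higher and 0 lower without 35 h A and without 35 h B, 0 higher and 4 lower without 48 h A, and 0 higher and 8 lower without 48 h B. Of the 10 calls named for these groups, that of stg held, and the other calls were lost without 35 h A (adjusted p 0.0625 to 0.108) and without 35 h B (adjusted p 0.0516 to 0.116), and E2f2 also without 48 h A and without 48 h B (adjusted p = 0.0832 and 0.0794). In the 10-library fit none of these 10 calls passed, that of stg included. The 48 h means of Mcm6, RnrL and S6k were 0.783, 0.799 and 0.836 times the 35 h means.

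**Figure D3:**
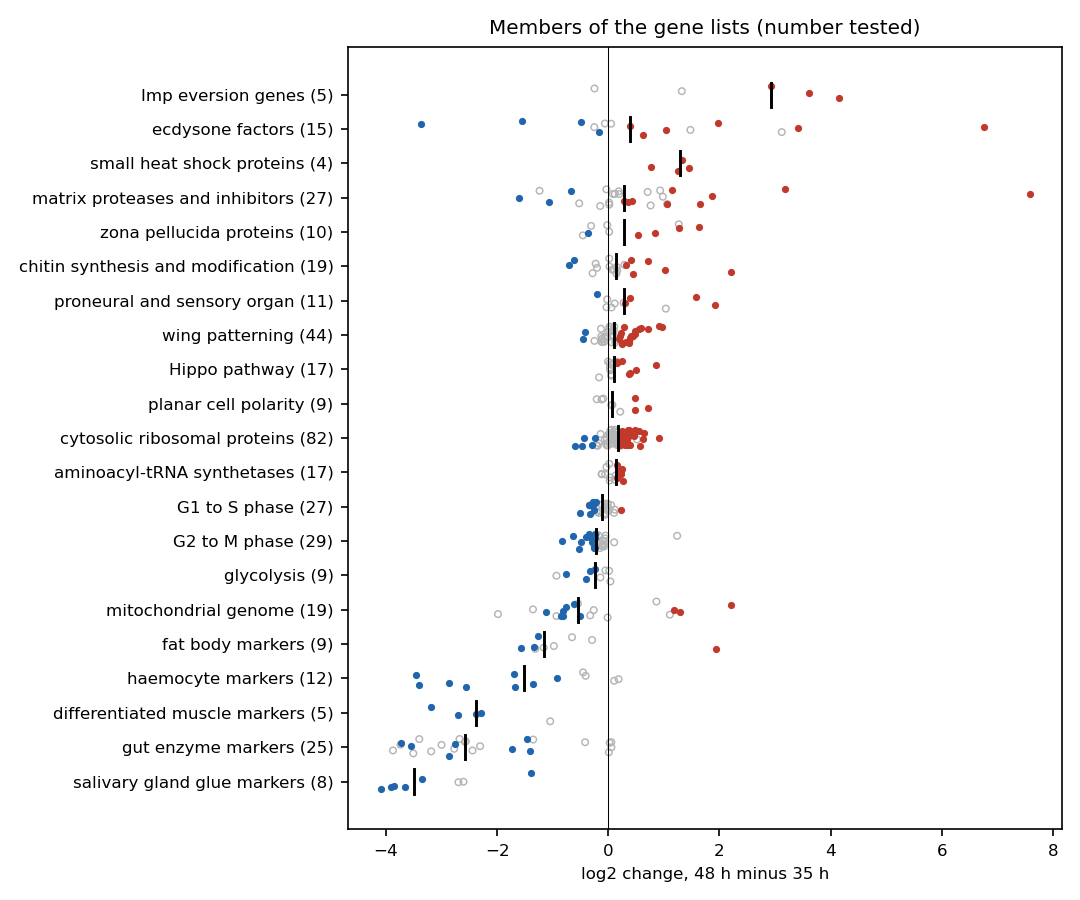
Log2 change from 35 h to 48 h (horizontal axis) of the tested members of 21 gene lists (rows, with the number tested), 1 point per gene, red for called higher, blue for called lower and open grey for not past the threshold. A black bar marks the median of each list, which lies at 2.93 for the Imp genes and at -3.50 for the glue markers.

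Of the 82 cytosolic ribosomal protein genes tested, 32 were called higher and 5 lower. Calls made up 45.1% of the list, against 25.5% of all genes, with a median log2 change of 0.17. RpL23A was at 21751 and 19772 at 35 h against 38702 and 39405 at 48 h (log2 change 0.91 ± 0.06, adjusted p = 0.00114), RpL8 at 46219 and 41157 at 35 h against 67554 and 68803 at 48 h (log2 change 0.64 ± 0.08, adjusted p = 0.00416) and RpL4 at 49961 and 45362 at 35 h against 71960 and 75838 at 48 h. At 25 h, RpL23A had been at 46088 and 41269 and RpL8 at 72667 and 67335, so the 35 h libraries were low and the 48 h libraries near the 25 h level. sta, which encodes a small subunit protein, followed the same course, at 69280 and 62888 at 35 h against 90530 and 96445 at 48 h. The lower genes ran opposite. RpL38 was at 28855 and 30019 at 35 h against 18485 and 20533 at 48 h (log2 change -0.60 ± 0.07, adjusted p = 0.00332), after 19975 and 20124 at 25 h, and RpL41 and RpL39 were at 87328 and 87758 at 35 h against 59495 and 70011 at 48 h and at 20910 and 25888 at 35 h against 15794 and 18022 at 48 h.

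Exonic length, counted over all annotated exons of a gene, moved with this split. The 5 genes called lower had exonic lengths of 288 to 1013 bases, with a median of 724, and the 32 called higher had 535 to 2231 bases, with a median of 1018. Across the 82 genes, the Spearman coefficient between exonic length and log2 change was 0.28, as a description of genes that share libraries. For the same genes it was -0.41 over the step before, 35 h minus 25 h, and both steps share the 35 h libraries. For 48 h minus 35 h it was 0.14 over 9223 genes of the whole table with a length. The 925 shortest of those genes (up to 821 bases) had a median log2 change of -0.14, and the 923 longest (from 5666 bases) had 0.03. The part of exonic length in these changes was not tested, and the length of the transcripts present was not measured. Of the genes named here, RpL8, RpL23A and RpL38 passed in the 10-library fit. Without 35 h A, sta, RpL41, RpL39 and Fib (adjusted p 0.0529 to 0.154) were lost, without 35 h B RpL4, sta, RpL41, RpL39 and Fib (adjusted p 0.0558 to 0.140), without 48 h A RpL41 and RpL39 (adjusted p 0.0623 to 0.0745) and without 48 h B Fib (adjusted p = 0.0969). The whole list gave 8 higher and 1 lower without 35 h A, 4 higher and 1 lower without 35 h B, 27 higher and 2 lower without 48 h A, and 18 higher and 6 lower without 48 h B. Of the nucleolar genes of ribosome assembly, Nop56 was called lower (6862 and 6867 at 35 h against 5303 and 5279 at 48 h) and Fib (fibrillarin) higher (3252 and 3351 at 35 h against 3679 and 3800 at 48 h).

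Genes of the mitochondrial genome also split. Of 19 tested, 3 were called higher and 7 lower (52.6%, against 25.5% of all genes). The cytochrome oxidase genes mt:CoI and mt:CoIII were at 230620 and 241585 at 35 h against 114331 and 148715 at 48 h and at 126744 and 133915 at 35 h against 67184 and 87588 at 48 h, and mt:Cyt-b was at 53839 and 66171 at 35 h against 30115 and 38738 at 48 h. In each, both 48 h libraries lay below both 35 h libraries. The NADH dehydrogenase subunit genes went both ways, and 3 of them were called higher. mt:ND6 was at 205 and 255 at 35 h against 1083 and 1046 at 48 h (log2 change 2.21 ± 0.12, adjusted p = 0.000806), after 1240 and 1075 at 25 h. mt:ND2 was at 2028 and 2382 at 35 h against 4844 and 5090 at 48 h (log2 change 1.18 ± 0.08, adjusted p = 0.00112) and mt:ND4L at 306 and 426 at 35 h against 832 and 932 at 48 h. Called lower were mt:ND1 at 31273 and 35741 at 35 h against 17826 and 20370 at 48 h (log2 change -0.81, adjusted p = 0.00336) and mt:ND3 at 6045 and 9726 at 35 h against 3175 and 3885 at 48 h (log2 change -1.13, adjusted p = 0.0161). mt:ND4 and mt:ND5 did not pass, with log2 changes of -0.55 and -0.01 (adjusted p = 0.0507 and 0.966). In the 10-library fit no gene of the mitochondrial genome passed. Mitochondrial transcripts are cut from shared precursors, and mt:CoIII, mt:ND4 and mt:ND4L overlap a neighbour on the same strand in the annotation, so reads between them cannot be assigned with certainty. The falls of mt:CoI, mt:CoIII and mt:Cyt-b were lost without 35 h A and without 35 h B (adjusted p 0.0625 to 0.134 and 0.0514 to 0.104, the ranges with PyK), mt:ND3 was lost without 35 h B (adjusted p = 0.0551), and the 3 rises and the fall of mt:ND1 held without each library in turn. The whole list gave 3 higher and 2 lower without 35 h A, and 4 higher and 1 lower without 35 h B, with more rises than falls in both.

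Among nuclear genes of the respiratory chain, ox, which encodes a small complex III subunit, had the largest called fall, at 2113 and 1939 at 35 h against 928 and 982 at 48 h (log2 change -1.08 ± 0.07, adjusted p = 0.000806). No gene of the nuclear respiratory chain or glycolysis lists passed in the 10-library fit. Of 13 glycolysis genes listed, 4 were not found in the table, and 4 of the 9 tested were called lower (44.4%, against 25.5% of all genes). Ald1 (aldolase) was at 12068 and 8840 at 35 h against 6137 and 6028 at 48 h, after 48097 and 28840 at 25 h, and Hex-A (hexokinase) and PyK (pyruvate kinase) were at 1949 and 1958 at 35 h against 1494 and 1473 at 48 h and at 10893 and 9771 at 35 h against 8643 and 8744 at 48 h. The glycolysis list gave 2 lower without 35 h A, 3 lower without 35 h B, and 2 lower without 48 h A. PyK was lost without any 1 of the 4 libraries (adjusted p = 0.134, 0.0514, 0.0694 and 0.0516 without 35 h A, 35 h B, 48 h A and 48 h B).

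**Figure D4:**
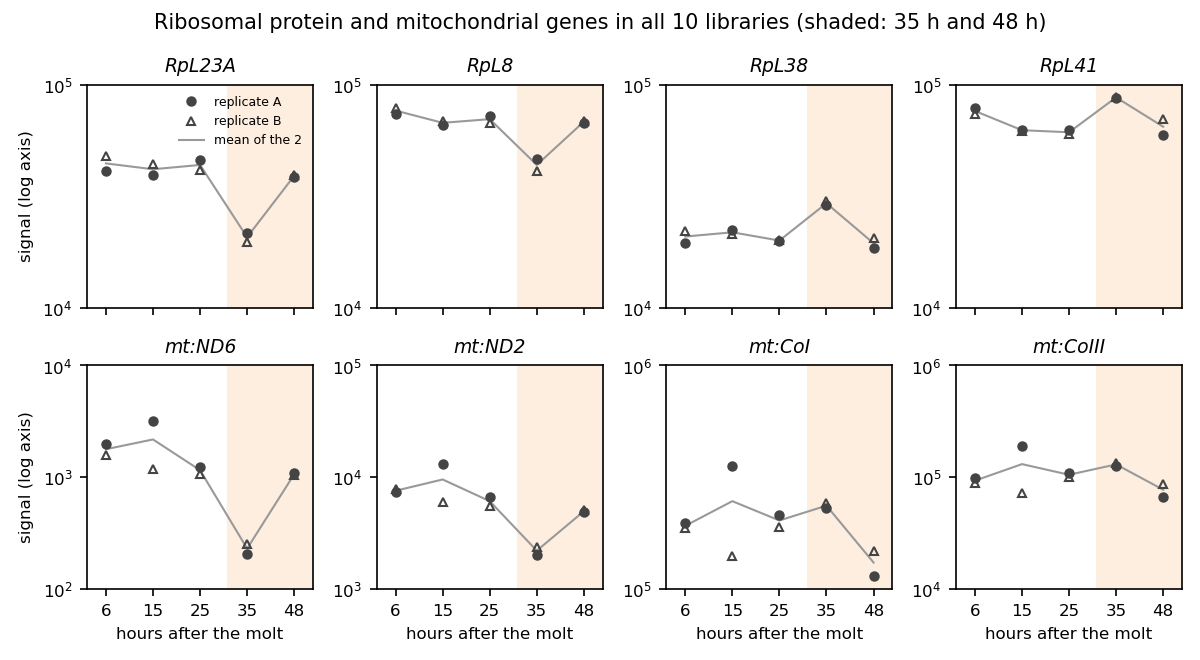
Signal (vertical axis, log scale) of 4 ribosomal protein genes (upper row) and 4 genes of the mitochondrial genome (lower row) in all 10 libraries, by hours after the molt, with replicate A as filled circles, replicate B as open triangles and a line through the means. RpL23A, RpL8, mt:ND6 and mt:ND2 have their lowest values at 35 h and are higher at 48 h, while RpL38 and RpL41 have their highest values at 35 h.

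Many of the falls among the lists were of genes known from tissues other than the disc epithelium. Of 17 markers of differentiated muscle listed, 11 were not found in the table. Of the 5 tested, 4 were called lower (80%, against 25.5% of all genes). Act57B, a muscle actin gene, was at 37400 and 17263 at 35 h against 4609 and 3316 at 48 h (log2 change -2.70 ± 0.35, adjusted p = 0.00500), after a mean of 154251 at 6 h. Tm2 (tropomyosin) was at 5821 and 2634 at 35 h against 902 and 633 at 48 h, and the troponin C genes TpnC73F and TpnC47D were at 2562 and 1285 at 35 h against 447 and 310 at 48 h and at 945 and 428 at 35 h against 117 and 39.9 at 48 h. Act87E did not pass, at 1404 and 624 at 35 h against 588 and 350 at 48 h (adjusted p = 0.112). The 5 markers summed to 48132 and 22234 at 35 h and 6662 and 4649 at 48 h. In all of these genes 35 h A lay above 35 h B. The call of TpnC47D was lost without 35 h A (adjusted p = 0.0986) and without 35 h B (adjusted p = 0.0580), and Act57B, Tm2 and TpnC73F passed in the 10-library fit. Tested markers of adult muscle precursors, the myoblasts that lie on the disc, went the other way. Of the 8 listed, 5 were not found in the table. Of 3 tested, Ama was at 4179 and 4436 at 35 h against 7335 and 6437 at 48 h (log2 change 0.67 ± 0.07, adjusted p = 0.00287) and hbs, which encodes a protein of myoblast fusion, at 1139 and 1194 at 35 h against 2084 and 2083 at 48 h (log2 change 0.84 ± 0.05, adjusted p = 0.000806).

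Haemocyte (blood cell) markers had 8 of 12 members called lower (66.7%, against 25.5% of all genes). Hml, a marker of plasmatocytes, was at 21975 and 11665 at 35 h against 5009 and 4891 at 48 h (log2 change -1.69 ± 0.27, adjusted p = 0.00879). The prophenoloxidase genes of crystal cells, PPO1 and PPO2, were at 17442 and 7596 at 35 h against 981 and 2562 at 48 h and at 15249 and 6833 at 35 h against 1206 and 2514 at 48 h, and lz, the transcription factor gene of the same cells, was at 69.8 and 27.1 at 35 h against 1.34 and 5.96 at 48 h. Nplp2, a neuropeptide-like gene, was at 3782 and 2008 at 35 h against 211 and 318 at 48 h (log2 change -3.41 ± 0.32, adjusted p = 0.00219), after 34080 and 12799 at 25 h. The list summed to 74235 and 37389 at 35 h and 13597 and 16291 at 48 h, with none at 0 in any of the 4 libraries. In the 10-library fit, 1 member of the list was called lower, and it was none of the 5 genes named here. The calls lost without 35 h A were those of PPO1, PPO2 and lz (adjusted p 0.0855 to 0.132), and without 35 h B those of PPO1 and lz (adjusted p 0.0551 to 0.0677). The list gave 4 lower without 35 h A, and 7 lower without 35 h B.

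Glue genes of the salivary gland had 6 of 8 members called lower (75%, against 25.5% of all genes). Sgs7 was at 760 and 3414 at 35 h against 84.9 and 102 at 48 h (log2 change -4.10 ± 0.64, adjusted p = 0.00838), and Sgs8 and Sgs3, which adjoin it on arm 3L, were at 184 and 903 at 35 h against 28.7 and 34.6 at 48 h and at 157 and 1316 at 35 h against 44.1 and 43.5 at 48 h. Sgs4 and Sgs1 were at 203 and 966 at 35 h against 38.1 and 23.2 at 48 h and at 166 and 597 at 35 h against 12.0 and 32.8 at 48 h. In all 5 of these genes 35 h B lay above 35 h A, and the 25 h libraries differed in the same sense, with 135 and 1325 for Sgs7. sage, a transcription factor gene of the gland, was at 177 and 248 at 35 h against 82.2 and 76.3 at 48 h, and Eig71Ee, a glue gene induced by ecdysone, at 699 and 2705 at 35 h against 118 and 192 at 48 h. The list summed to 1868 and 8900 at 35 h and 396 and 388 at 48 h. Sgs3 was lost without 48 h A and without 48 h B (adjusted p = 0.0629 and 0.0622), and Sgs1 and sage without 35 h B (adjusted p = 0.0743 and 0.0553). The list gave 8 lower without 35 h A, and 4 lower without 35 h B. None of the 7 calls of glue-related genes passed in the 10-library fit.

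Fat body and gut genes had fewer calls. Of 25 gut enzyme genes, 7 were called lower (28%, against 25.5% of all genes). Their list had a median log2 change of -2.58 and a summed signal of 3056 and 10066 at 35 h and 1146 and 1059 at 48 h. Mal-A4 (maltase) was at 36.2 and 137 at 35 h against 5.35 and 3.57 at 48 h, and Amy-p (amylase) was at 52.3 and 549 at 35 h against 22.7 and 5.96 at 48 h, with no call (adjusted p = 0.0582). Among 9 fat body genes, 3 were called lower and Fbp1 higher (44.4%, against 25.5% of all genes). Fbp1, the ecdysone-induced receptor gene through which fat body takes up storage protein, was at 4248 and 6050 at 35 h against 16302 and 22935 at 48 h (log2 change 1.93 ± 0.21, adjusted p = 0.00300), against 1748 and 17567 at 25 h. The storage protein gene Lsp1beta was at 47457 and 54489 at 35 h against 14174 and 28451 at 48 h, after 1661700 and 660332 at 25 h, and Fbp2 was at 8446 and 9317 at 35 h against 2445 and 5621 at 48 h. The secreted products of the imaginal disc growth factor genes are also made by fat body and haemocytes. Of these genes, 3 of 6 were called lower (50%, against 25.5% of all genes). Among them were Idgf6 at 3798 and 2809 at 35 h against 1351 and 1466 at 48 h and Idgf2 at 596 and 409 at 35 h against 197 and 153 at 48 h. None of the 6 calls named for fat body, gut and growth factor genes passed in the 10-library fit. Leaving out 35 h A lost Fbp2, Lsp1beta and Idgf2 (adjusted p 0.0528 to 0.184), and without 35 h B Fbp2, Lsp1beta and Mal-A4 (adjusted p 0.0641 to 0.217). The gut list gave 12 lower without 35 h A, and 2 lower without 35 h B. The fat body list gave 1 higher and 0 lower without 35 h A, 1 higher and 1 lower without 35 h B, and 1 higher and 7 lower without 48 h B, and the disc growth factor list 1 lower without 35 h A, 3 lower without 35 h B, and 1 higher and 3 lower without 48 h B.

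These marker sums differed between the libraries of 1 time as well as between times, with muscle and haemocyte markers higher in 35 h A and glue and gut markers higher in 35 h B. Their part in the falls of other genes was not tested.

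**Figure D5:**
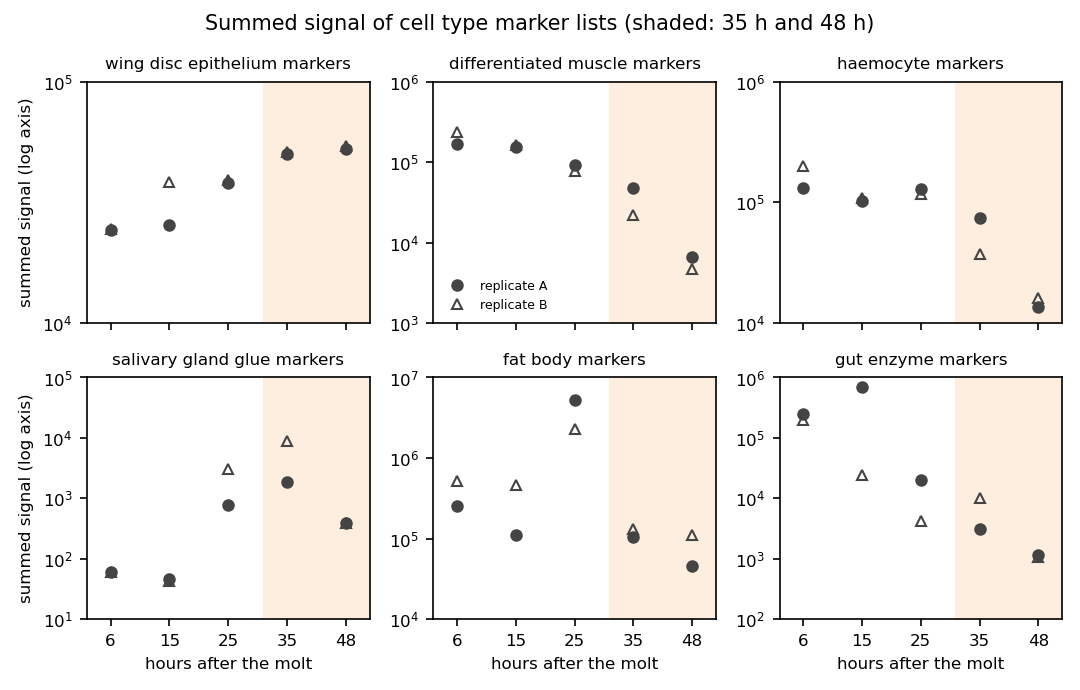
Summed signal (vertical axis, log scale) of 6 lists of cell type markers in all 10 libraries, by hours after the molt (horizontal axis), with replicate A as filled circles and replicate B as open triangles. The wing epithelium sum is level from 35 h to 48 h, while the muscle, haemocyte, glue and gut sums are lower in both 48 h libraries than in both 35 h libraries, and the fat body sums of 35 h A and 48 h B lie close together.

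Among genes outside these lists, the largest fall was in a copy of 28S ribosomal RNA, the pseudogene CR45860 on the X chromosome (23270802 onward), whose symbol is 28SrRNA-Psi:CR45860. It was at 22308 and 18464 at 35 h against 416 and 344 at 48 h (log2 change -5.74 ± 0.12, adjusted p = 4.63e-05), after 3194 and 1062 at 25 h, and its 35 h mean was the highest of the 5 times. Since the protocol removes ribosomal RNA, its level can depend on that step, and near-identical copies can share its reads. Of 64 pseudogenes tested, 11 were called lower and none higher (17.2% called, against 25.5% of all genes). CG9757 was at 455 and 258 at 35 h against 11.4 and 2.98 at 48 h, CG1208 at 464 and 622 at 35 h against 4.01 and 26.8 at 48 h and CtsK2, a cathepsin gene, at 385 and 80.0 at 35 h against 6.02 and 2.98 at 48 h. The lysosomal mannosidase genes LManVI and LManIII, neighbours on arm 2L, were at 627 and 279 at 35 h against 18.7 and 11.9 at 48 h and at 185 and 99.3 at 35 h against 7.35 and 2.38 at 48 h, and nrv3, a sodium pump beta subunit gene, was at 156 and 61.9 at 35 h against 2.67 and 2.98 at 48 h.

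In the tubulin list, 1 of 10 genes tested was called higher and 2 lower (30%, against 25.5% of all genes). A pair of called tubulin genes changed in opposite directions. alphaTub85E was at 944 and 1473 at 35 h against 46.8 and 87.6 at 48 h (log2 change -4.18 ± 0.33, adjusted p = 0.00157), after 143 and 82.8 at 25 h, and after a mean of 526 at 6 h. betaTub60D was at 1604 and 1845 at 35 h against 4492 and 3096 at 48 h (log2 change 1.12 ± 0.17, adjusted p = 0.00808). The rises outside the lists included St2, a sulfotransferase gene, at 48.3 and 98.0 at 35 h against 1392 and 1109 at 48 h (log2 change 4.15 ± 0.32, adjusted p = 0.00144), and ana, which encodes a secreted glycoprotein of glia that holds neuroblasts quiescent, at 122 and 86.4 at 35 h against 725 and 1122 at 48 h. CG13053, CG1273 and CG9416, for which the files give no name beyond the symbol, were at 20.1 and 5.16 at 35 h against 330 and 287 at 48 h, at 92.6 and 120 at 35 h against 1295 and 757 at 48 h and at 501 and 614 at 35 h against 4736 and 3098 at 48 h. CG1208 and betaTub60D were lost without 35 h A (adjusted p = 0.0658 and 0.0858) and without 35 h B (adjusted p = 0.0698 and 0.0647), and LManIII without 35 h A (adjusted p = 0.0545).

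Some of the falls were neighbours. Along the chromosome arms, 3 runs of at least 4 consecutive tested genes were all called at least 2-fold lower, and no run of that length was higher. The longest was on arm 3L from 1201871 to 1228238 and held 6 genes, meep, CG9119 and the lysozyme genes LysB, LysC (annotated as a pseudogene), LysD and LysS. LysB was at 281 and 135 at 35 h against 25.4 and 37.5 at 48 h and LysS at 314 and 166 at 35 h against 38.8 and 49.5 at 48 h, against means of 95496 and 51689 at 15 h. The lysozyme genes are near copies of each other, so the division of reads among them is uncertain. On arm 2L, from 13920707 to 13947476, Vajk1, CG42711, Vajk2 and Vajk3 fell together, with Vajk2 at 2707 and 2358 at 35 h against 1062 and 1007 at 48 h and Vajk3 at 2483 and 2198 at 35 h against 940 and 778 at 48 h. The other run, on arm 2L from 10681030 to 10687066, held CG17105, CG17107, CG7299 and CG7296, with CG7299 at 423 and 128 at 35 h against 14.0 and 8.34 at 48 h. Without 35 h A, LysB, LysC and LysD (adjusted p 0.0542 to 0.0792) were lost and 1 run was left, and without 35 h B LysC (adjusted p = 0.0553) was lost.

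Whether the step from 35 h to 48 h differed from the step before it was tested as the difference of the 2 log2 changes in the 6 libraries of 25, 35 and 48 h, over 9660 genes. This difference passed for 826 genes (8.55%), of which 405 (4.19%) were more positive at the later step and 421 (4.36%) more negative. Both steps share the 35 h libraries, and the contrast takes this into account. Under a common median for all libraries, 346 and 717 passed, and under quantile normalization 313 and 661. Of the 1195 genes called higher at 48 h, 282 had a difference in the same direction and 2 in the other, and of the 1162 called lower, 317 and 7. Genes with a difference included chinmo, ftz-f1, Eip75B, Eip78C, Spn100A, sens, mt:ND6, RpL23A and stg. ImpE2, ImpE1, ImpE3, Blimp-1 and Hsp23 did not pass (adjusted p = 0.323, 0.190, 0.134, 0.0566 and 0.219). For ImpE2 the earlier step was the larger, with a log2 change of 6.31 against 4.14. No member of the Imp, small heat shock, differentiated muscle, haemocyte, glue or fat body lists passed. With limma, no gene or 1 gene passed when any single library of 35 h or 48 h was left out (1685 to 2310 genes at an unadjusted p under 0.05), and leaving out a 25 h library gave 1613 and 2327. Without the intensity trend no gene passed (2630 at an unadjusted p under 0.05), edgeR called 556 and DESeq2 2369. These differences therefore rest on every 35 h and 48 h library being in the fit.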

How the data were processed

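Per the labels' protocols, total RNA of wing discs was cleared of ribosomal RNA and made into stranded libraries, although the molecule field says polyA RNA. Per the submitters' processing notes, the tools were STAR 2.7.10a with featureCounts, and the builds BDGP6 and dm6. Whether counting used strand is not given in the sources used here, so genes whose exons overlap another gene are less certain, among them ImpL2, ftz-f1, Hr39, Imp, Pxn, RpL23A, Act57B, Fbp2 and CG1208. The deposited table holds signal, which the authors made by dividing read counts by 1 size factor per library. Whole reads were recovered for 100% of values within 0.001 reads, and these were used only for edgeR 4.0.16, DESeq2 1.42.0 and the depths. Coordinates come from the Ensembl BDGP6.54 annotation, in which 13000 of the 13041 genes were found, and 41, hbs and betaTub60D among them, were not. No sequences are printed.

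The 4 libraries were fitted in limma 3.58.1 (R 4.3.3) on log2(signal + 1) with an intensity trend (2 residual degrees of freedom, 6.02 after moderation, two-sided), which was tested on simulated data. Adding 1 understates changes of low genes. Members and the 56 gene lists were chosen with earlier results of these data known. Lists are described by counts and medians, with no test. Listed genes absent from the table or below the filter are left out of these counts. Named genes were list members, the 15 largest rises and falls among called genes with a mean signal of at least 100 at the higher time and more than 3 reads in each library of the lower, the 5 largest by mean signal, and genes of the runs. Replicate letters were not treated as pairs in the main fit (correlation of deviations of 35 h A with 48 h A 0.0044).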

Additional observations from a re-analysis of the deposited data

How the results depend on the processing

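Of the 172 genes named, 150 were called, and all 150 kept their direction under the 15 alternatives, which for most alternatives was fixed in advance. With the pseudocount at 0.5 or 5, or with a common median, all 150 stayed called, with edgeR 148, with DESeq2 145, without the filter on low signal 146 and under quantile normalization 145. They fell to 88 with the filter over 10 libraries, 33 without the intensity trend and 30 with all 10 libraries in 1 fit. The spread between replicates is widest at 15 h, which only the last of these fits uses. Counts of higher and lower genes were 624 and 496, 100 and 172, and 38 and 49 under these 3 settings, and counts of at least 2-fold 95 and 211, 51 and 128, and 21 and 46. Leaving out 1 library gave 312 to 1008 higher and 255 to 980 lower genes, and 88 to 200 and 161 to 369 of at least 2-fold. The runs of neighbouring genes numbered 1 with the filter over 10 libraries, 7 without a filter, 0 in the 10-library fit and without the trend, and 1 to 4 with 1 library left out. Of the named genes not called, 2 changed sign with 1 library left out, Oatp74D with log2 changes from -0.32 to 0.044 and mt:ND5 from -0.24 to 0.22.

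The replicate block gave 1014 higher and 993 lower genes, of which 1912 were called without it, and 147 of the 150 named calls remained. With 2 pairs, a correlation of deviations of 0.0044 cannot show whether libraries of the same letter shared a culture or preparation.

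The difference between the steps moved most. Counts more positive and more negative were 1301 and 1068 with DESeq2, 259 and 297 with edgeR, 185 and 164 with the replicate block, 3 and 3 with all 10 libraries, and 0 and 0 without the trend (2630 at an unadjusted p under 0.05). More negative counts were 717 with a common median, 661 with quantile normalization and 276 without a filter. Leaving out 1 library gave 0 to 1368 more positive and 0 to 959 more negative. The cause of these shifts was not tested. With 2 libraries per time, small changes are judged largely by the spread of other genes of like signal.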

Other observations

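The following genes were picked after their values were seen and lie outside the lists or the rule for naming, except GstD3 and GstD1. In the glutathione transferase family, which detoxifies reactive compounds, 5 of 30 genes tested were called higher and 9 lower (46.7%, against 25.5% of all genes). This list gave 4 higher and 2 lower without 35 h A, and 4 higher and 3 lower without 35 h B. GstD3 had a signal of 4311 and 3994 at 25 h, 4.03 and 190 at 35 h, then 2377 and 3083 at 48 h, while GstD4, a neighbour on arm 3R, had 139 and 85.9, 1.34 and 5.16 and 41.4 and 50.6. GstD3 was thus low in both 35 h libraries, which also differed from each other. GstD1, the most widely studied member, had 52413 and 36768, 18759 and 18333 and 27127 and 27366 at the same times. GstD genes are close copies, so the division of reads among them is uncertain.

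Vajk4, on arm 2R, moved opposite to its relatives Vajk1, Vajk2 and Vajk3 on arm 2L. It had 2.68 and 1.29 at 35 h against 135 and 70.3 at 48 h, and its means at 6, 15 and 25 h were 19.3, 4.93 and 3.99. sv, a Pax gene of sensory organ cells, had 12.6 and 9.31 at 25 h, 1.34 and 0 at 35 h, then 15.4 and 11.9 at 48 h, all low levels, and lower at 35 h than at the times on either side. Its call (adjusted p = 0.0293) was lost without 35 h A, 35 h B, 48 h A and 48 h B in turn (adjusted p = 0.0528, 0.0733, 0.160 and 0.104) and with DESeq2 (adjusted p = 0.0635). ItgaPS4, an integrin alpha gene, had 15.4 and 18.6 at 25 h, 387 and 678 at 35 h, then 24.7 and 36.9 at 48 h, so it was high at 35 h next to the times on either side.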
